A study of Mus musculus with 12 samples.

Results

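The genes described here are those of cholesterol and fatty acid synthesis, 35 symbols listed by role. They were found as every probe set that the array's annotation maps to 1 of these symbols alone. That gave 81 probe sets for 34 of the 35 genes, out of 18193 genes named on the array. Acat2 had no probe set named for it alone, so its signal is not analysed here, and it enters the promoter counts only. The list holds 19 genes of the sterol branch, of which 18 were measured, 6 genes of regulation and transport, and 10 genes of the fatty acid branch. Each gene was represented by its brightest probe set. All 34 passed the filter on dim signals, which kept 11696 genes in all.

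The arrays measured RNA from mouse cell lines, 2 arrays for each of 6 conditions. HAFTL, derived from fetal liver and transformed with the Ha-ras oncogene, received beta-estradiol. C10 carries C/EBPα, a transcription factor of myeloid cells, in inducible form. It received ethanol as the vehicle, or 3, 12, 24 or 48 h of beta-estradiol. The question is given by the series title, how a B cell line is reprogrammed into macrophages, and its design text names HAFTL as the control. The labels do not say whether C10 is 1 clone, which promoter drives the factor, how long HAFTL or the vehicle culture was treated, or whether the 2 arrays of a condition stem from separate cultures. The p-values therefore cover only the spread between these arrays, which may be technical. HAFTL with estradiol and vehicle C10 differ in both line and agent, so that line and agent cannot be told apart in that comparison.

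Cholesterol is built from acetyl units through mevalonate, isoprenoid diphosphates, squalene and lanosterol. Its enzymes are largely under the transcription factor SREBP-2, the product of Srebf2, which is held in the endoplasmic reticulum by the Insig proteins and carried to the Golgi for activation by Scap when membrane sterols run low. SREBP-1, the product of Srebf1, acts more on the enzymes that build, elongate and desaturate fatty acids, and also responds to the oxysterol receptors of macrophages. SREBPs bind short sterol regulatory elements and work with the CCAAT-binding factor NF-Y.

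The RefSeq promoter table (GRCm38.p6) held windows for 28 of the 35 genes, from 250 bases before to 50 after the annotated start, 300 bases in all. The letters CCAAT, the core of the NF-Y site, were searched on both strands. Some genes had several windows, and a gene was counted if any of its windows held the letters. That was so for 15 of 16 sterol genes (93.8%) and 4 of 5 regulation and transport genes (80.0%). It was so for 4 of 7 fatty acid genes (57.1%), against 41.1% of 27025 genes with a window. Counted by window, the letters lay in 15 of 19 sterol windows and 5 of 10 regulation and transport windows. They lay in 4 of 8 fatty acid windows, against 37.4% of all 32851 windows. The sterol gene without CCAAT was Acat2. The sterol element TCACNCCAC was found in Hmgcs1 alone, against 1.44% of all genes, with its first base at -137 from the start. The C/EBP-type letters TTGCNNAA were found in Nsdhl, where they overlap a CCAAT match, and in Dhcr7, against 12.2% of all genes. A match describes the letters in the window and is not evidence of binding. The 250 bases before the start are printed below for Hmgcs1, Idi1, Lss and Cyp51. These are among the sterol genes that hold CCAAT and were at least 2-fold higher after 3 h and 12 h by the probe set used. Also printed are 2 genes without CCAAT whose signal fell with time, Scap and Elovl6. Capitals mark CCAAT or its reverse complement ATTGG, and in Hmgcs1 also the sterol element. Each runs 5′ to 3′ on the gene's own strand. The stretches are Hmgcs1 at chr13:119690101-119690350 (plus strand), Idi1 at chr13:8885356-8885605 (plus strand), Lss at chr10:76531355-76531604 (plus strand), Cyp51 at chr5:4104698-4104947 (minus strand), Scap at chr9:110333038-110333287 (plus strand), the first of its 2 windows, and Elovl6 at chr3:129532136-129532385 (plus strand).
Hmgcs1: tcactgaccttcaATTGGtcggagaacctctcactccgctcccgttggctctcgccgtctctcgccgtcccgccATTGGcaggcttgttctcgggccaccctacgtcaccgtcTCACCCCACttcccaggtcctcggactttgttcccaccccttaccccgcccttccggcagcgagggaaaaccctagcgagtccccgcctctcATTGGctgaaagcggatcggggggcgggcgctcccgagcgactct
Idi1: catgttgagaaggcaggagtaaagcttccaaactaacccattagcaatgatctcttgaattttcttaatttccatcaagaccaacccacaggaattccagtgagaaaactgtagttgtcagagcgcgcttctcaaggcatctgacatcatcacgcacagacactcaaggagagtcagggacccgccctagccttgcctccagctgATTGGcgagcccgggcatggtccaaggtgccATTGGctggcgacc
Lss: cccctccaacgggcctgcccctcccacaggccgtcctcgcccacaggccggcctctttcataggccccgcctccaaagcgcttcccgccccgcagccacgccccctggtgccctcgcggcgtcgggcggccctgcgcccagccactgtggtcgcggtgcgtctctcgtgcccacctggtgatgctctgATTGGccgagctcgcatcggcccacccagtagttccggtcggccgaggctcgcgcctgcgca
Cyp51: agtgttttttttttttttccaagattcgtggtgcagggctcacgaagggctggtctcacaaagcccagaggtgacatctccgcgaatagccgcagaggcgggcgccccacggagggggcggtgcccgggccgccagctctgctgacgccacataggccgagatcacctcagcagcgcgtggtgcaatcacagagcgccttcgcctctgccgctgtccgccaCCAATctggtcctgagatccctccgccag
Scap: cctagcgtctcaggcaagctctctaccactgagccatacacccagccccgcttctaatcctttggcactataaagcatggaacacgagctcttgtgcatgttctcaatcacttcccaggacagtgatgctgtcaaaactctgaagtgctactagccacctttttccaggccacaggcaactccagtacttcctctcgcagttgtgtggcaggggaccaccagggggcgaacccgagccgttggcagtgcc
Elovl6: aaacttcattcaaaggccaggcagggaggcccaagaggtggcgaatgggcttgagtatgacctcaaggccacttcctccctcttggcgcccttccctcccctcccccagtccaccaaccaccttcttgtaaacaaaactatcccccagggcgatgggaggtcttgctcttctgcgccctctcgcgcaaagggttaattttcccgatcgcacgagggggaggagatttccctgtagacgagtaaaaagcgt
Hmgcs1 held 3 CCAAT matches in this stretch and Idi1 held 2, within 50 bases of the start. Lss and Cyp51 held 1 each. Ggps1, called lower after 3 h, held 3 matches in its whole window, and Acaca and Fads2, called higher after 3 h, held none. The Acaca stretch, chr11:84195188-84195437 on the plus strand, lies inside the gene, whose annotated start is 84129635. It need not be the main promoter of Acaca, which is counted among the 7 fatty acid genes above.

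Signals below are quantile-normalised intensities in arbitrary units, and differences are on the log2 scale, where 1 is a 2-fold change, with the standard error (SE) of the limma fit over 2 arrays a group. A gene is called at a Benjamini-Hochberg adjusted p below 0.05 over the 11696 genes tested. Each gene is read against its own level, since brightness of different probe sets is not comparable. Quantile scaling sets the level that a difference is read against. Scaling to the poly-A spike-in controls moved the median difference of all genes by 0.67, 0.70, 0.30 and 0.60 at the 4 times and by 0.04 in HAFTL, to 0.60, 0.62, 0.17, 0.41 and 0.04. It raised the share of calls that were higher from 43.4%, 43.7%, 42.1% and 38.8% to 83%, 85.3%, 63.9% and 71%, so differences here are relative to the other genes on the array. The summed signal of 9 pre-B genes fell from 116500 and 118900 in vehicle C10 to 18670 and 20280 at 48 h, and was 131500 and 131700 in HAFTL. That of 10 macrophage genes went from 1377 and 1393 to 154400 and 155400, and that of 6 granulocyte genes from 148.4 and 179.4 to 8672 and 10030. Among the defining pre-B genes, Rag1 was at the floor of 16 after 12 h and 24 h, and Adgre1, a macrophage gene, had a mean log2 signal of 6.46 in vehicle C10 and 7.22 after 48 h. The granulocyte genes S100a8 and Camp went from mean log2 4.80 and 4 in vehicle C10 to 12.67 and 11.34 after 48 h. S100a9, Ltf, Elane and Mpo were at 4.34, 4.79, 5.75 and 6.38 after 48 h, against 4.37, 4.05, 5.26 and 4.84 in vehicle C10. Fewer cells of a type and less RNA per cell cannot be told apart in such bulk samples. The 5′ to 3′ signal ratio of Actb, a sign of RNA quality, was 0.582 and 0.638 in vehicle C10, 0.691 and 0.740 in HAFTL and 0.746 to 0.848 in C10 with estradiol. The Actb ratio moved with the treatment. That of Gapdh was 1.194 and 1.15 in vehicle C10, 1.366 and 1.282 in HAFTL and 1.135 to 1.315 in C10 with estradiol. The treated C10 range of Gapdh thus spanned the vehicle values. The part of RNA quality in the results was not tested.

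**Figure D1:**
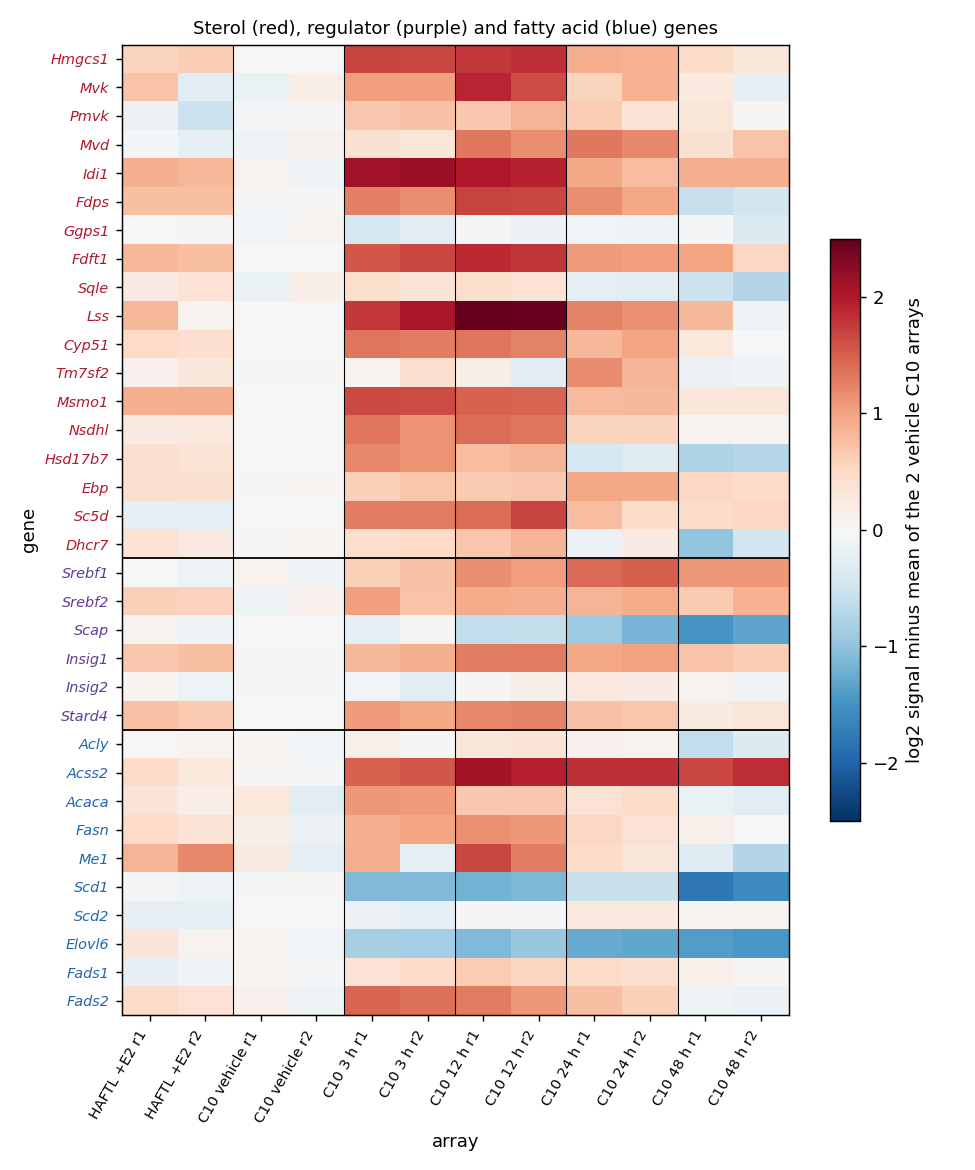
Heat map of the 34 genes (rows) in the 12 arrays (columns), coloured by log2 signal minus the mean of the 2 vehicle C10 arrays. Most sterol genes are red at 3 h and 12 h and paler by 48 h, Acss2 and Srebf1 stay red to 48 h, and Scap, Scd1 and Elovl6 turn blue.

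Nearly the whole sterol branch rose early in C10 given estradiol. Of its 18 genes, 14 were called higher and 1 lower at 3 h against vehicle C10, where 20.9% of all genes were higher and 27.3% lower. At 12 h 16 were higher and none lower, where 22.3% of all genes were higher and 28.7% lower. At 24 h 13 were higher and 1 lower, against 24.2% and 33.3% of all genes, and at 48 h 7 were higher and 4 lower, against 24.2% and 38.2%. The median difference of the 18 genes was 1.19, 1.33, 0.83 and 0.14 at the 4 times, against -0.06, -0.08, -0.13 and -0.19 for all genes tested. At an adjusted p below 0.05 and a change of at least 2-fold, 11 sterol genes were higher after 3 h, 11 after 12 h, 5 after 24 h and none after 48 h. Across the 5 C10 conditions the moderated F test called 17 of the 18, where 76% of all genes were called. The highest of the 5 means lay after 12 h in 10 genes, after 3 h in 4, after 24 h in 3 and in vehicle C10 in 1. Hmgcs1, Idi1, Fdft1, Msmo1, Ebp and Sc5d were called higher at every time by the probe set used, while another probe set was called lower for Sc5d after 24 h and 48 h and for Fdft1 after 12 h and 24 h.

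The branch begins with Hmgcs1, the cytosolic synthase that makes HMG-CoA. Its signal was 3295 and 3326 in vehicle C10, 10648 and 10530.1 after 3 h, 11239.8 and 11684 after 12 h, 6177 and 6024 after 24 h and 4521 and 4028 after 48 h. Both arrays at every time lay above both vehicle arrays, and the 12 h arrays were highest. The log2 difference was 1.68 ± 0.08 (adjusted p = 3.19e-06) after 3 h, 1.79 ± 0.08 after 12 h, 0.88 ± 0.08 after 24 h and 0.37 ± 0.08 (adjusted p = 0.00333) after 48 h. Idi1, which interconverts the isoprenoid diphosphates, gave 1414 and 1266 in vehicle C10, 5748 and 5929 after 3 h and 5392 and 5095 after 12 h. It then gave 2571 and 2292 after 24 h and 2511 and 2493 after 48 h, still above both vehicle arrays. Its difference at 3 h, 2.13 ± 0.09 (adjusted p = 2.38e-06), was 4.36-fold. Idi1 had the largest difference of the 34 genes at that time. The kinases and the decarboxylase lie between these steps. Mvk, mevalonate kinase, gave 159 and 202 in vehicle C10, 371 and 365 after 3 h, 675 and 552 after 12 h, 266 and 326 after 24 h and 213 and 155 after 48 h. It rose at 12 h by 1.77 ± 0.32 (adjusted p = 0.00255), and its 48 h arrays overlapped the vehicle arrays. Pmvk, the phosphomevalonate kinase, rose by 0.70 ± 0.16 after 3 h, 0.76 ± 0.16 after 12 h and 0.49 ± 0.16 after 24 h. Mvd, the decarboxylase that yields isopentenyl diphosphate, came later: it gave 498 and 583 in vehicle C10, 701 and 661 after 3 h, 1341 and 1210.0 after 12 h and 1346 and 1238 after 24 h. Its difference was 0.34 ± 0.14 (adjusted p = 0.0779) after 3 h, not called, and 1.24 ± 0.14 (adjusted p = 0.000195) after 12 h.

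Fdps makes farnesyl diphosphate, the last intermediate shared with protein prenylation. Its signal was 2016 and 2093 in vehicle C10, 4949.9 and 4585 after 3 h, 6656 and 6562 after 12 h and 4585 and 3993 after 24 h, and then 1379 and 1485 after 48 h. The 48 h arrays lay below both vehicle arrays, where the earlier ones all lay above. The difference from vehicle C10 was 1.69 ± 0.09 (adjusted p = 4.76e-06) after 12 h and -0.52 ± 0.09 (adjusted p = 0.00113) after 48 h. Ggps1 leads farnesyl diphosphate away from sterols to geranylgeranyl diphosphate. It was the sterol-list gene with the opposite sign after 3 h, with 1225 and 1342 in vehicle C10 and 952 and 1053 after 3 h, a difference of -0.36 ± 0.11 (adjusted p = 0.0294). Its later differences, from -0.19 to -0.08, were not called. Fdft1, squalene synthase, the first enzyme committed to sterols, gave 967 and 951 in vehicle C10, 2822 and 3055 after 3 h, 3481 and 3320.3 after 12 h, 2002 and 1944 after 24 h and 1894 and 1371 after 48 h. Every treated array lay above both vehicle arrays, with differences from 1.83 ± 0.14 (adjusted p = 2.99e-05) after 12 h to 0.75 ± 0.14 after 48 h. Sqle, squalene epoxidase, which adds the oxygen and is a slow step of the pathway, rose little and later fell. It gave 2051 and 2593 in vehicle C10, 3109.5 and 2978 after 12 h and 1593 and 1379 after 48 h. It was higher than vehicle C10 by 0.40 ± 0.13 (adjusted p = 0.0327) after 12 h and lower by 0.64 after 48 h, with adjusted p = 0.00299. The 48 h level differed from that at 12 h by -1.04 (adjusted p = 0.000258).

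Lss, lanosterol synthase, closes the sterol rings and, by the probe set used, had the largest difference of all 34 genes, which another of its probe sets did not show. Its signal was 201 and 203 in vehicle C10, 689 and 828 after 3 h, 1144 and 1125 after 12 h, 475 and 444 after 24 h and 356 and 186 after 48 h. The 12 h difference was 2.49 ± 0.32 (adjusted p = 0.000433), 5.62-fold, while the 48 h duplicates stood on both sides of the vehicle arrays. The next enzymes strip the methyl groups of lanosterol. Cyp51, the lanosterol 14-demethylase, gave 1283 and 1254 in vehicle C10, 3190.4 and 3085 after 3 h, 3221 and 3014 after 12 h and 1520.2 and 1268 after 48 h, with a 3 h difference of 1.31 ± 0.10 (adjusted p = 3.75e-05). Msmo1, the methylsterol oxidase, gave 1362 and 1352 in vehicle C10, 4268 and 4227 after 3 h and 1660.3 and 1663 after 48 h, with 1.65 ± 0.06 (adjusted p = 1.25e-06) after 3 h. Msmo1 had the smallest SE of the listed genes. Nsdhl, which works with Msmo1 in removing the methyl groups, rose by 1.23 ± 0.08 after 3 h and 1.37 ± 0.08 after 12 h, and its 48 h difference of 0.08 ± 0.08 was not called.

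Hsd17b7, the ketosteroid reductase that completes demethylation, turned over the course. It gave 532 and 539 in vehicle C10, 1236 and 1160.3 after 3 h, 918 and 962 after 12 h, 401 and 431 after 24 h and 313 and 326 after 48 h. The groups did not overlap, and the early arrays were above and the late arrays below the vehicle arrays. The difference was 1.16 ± 0.07 (adjusted p = 1.26e-05) after 3 h and -0.75 ± 0.07 (adjusted p = 5.05e-05) after 48 h. Tm7sf2, a sterol C14 reductase, was called at 24 h alone, with 593 and 475 against 256 and 269.9 and a difference of 1.01 ± 0.18 (adjusted p = 0.00185). Ebp, the sterol isomerase, was highest at 24 h too, with 2989.7 and 2960.2 against 1492 and 1577, a difference of 0.96 ± 0.07 (adjusted p = 1.29e-05). Sc5d, the sterol C5 desaturase, rose from 884 and 885 to 2320.2 and 2852 at 12 h, by 1.54 ± 0.13 (adjusted p = 4.1e-05). Dhcr7, the reductase that turns 7-dehydrocholesterol into cholesterol, gave 617 and 657 in vehicle C10, 1026 and 1153 after 12 h and 321 and 463 after 48 h. It was higher by 0.77 ± 0.19 (adjusted p = 0.00946) after 12 h and lower after 48 h, at -0.72 ± 0.19 (adjusted p = 0.00991).

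With 1 array left out, the call was lost for Mvk, Ggps1 and Sqle after 3 h (adjusted p up to 0.142, 0.142 and 0.216), Sqle and Dhcr7 after 12 h (up to 0.183 and 0.0553), Pmvk and Lss after 24 h (up to 0.171 and 0.0615), and Mvd and Dhcr7 after 48 h (0.0573 and 0.0505). The arrays whose loss did so were those of vehicle C10 or of the time compared, except for Sqle after 3 h, where each array after 12 h and 24 h did so too.

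**Figure D2:**
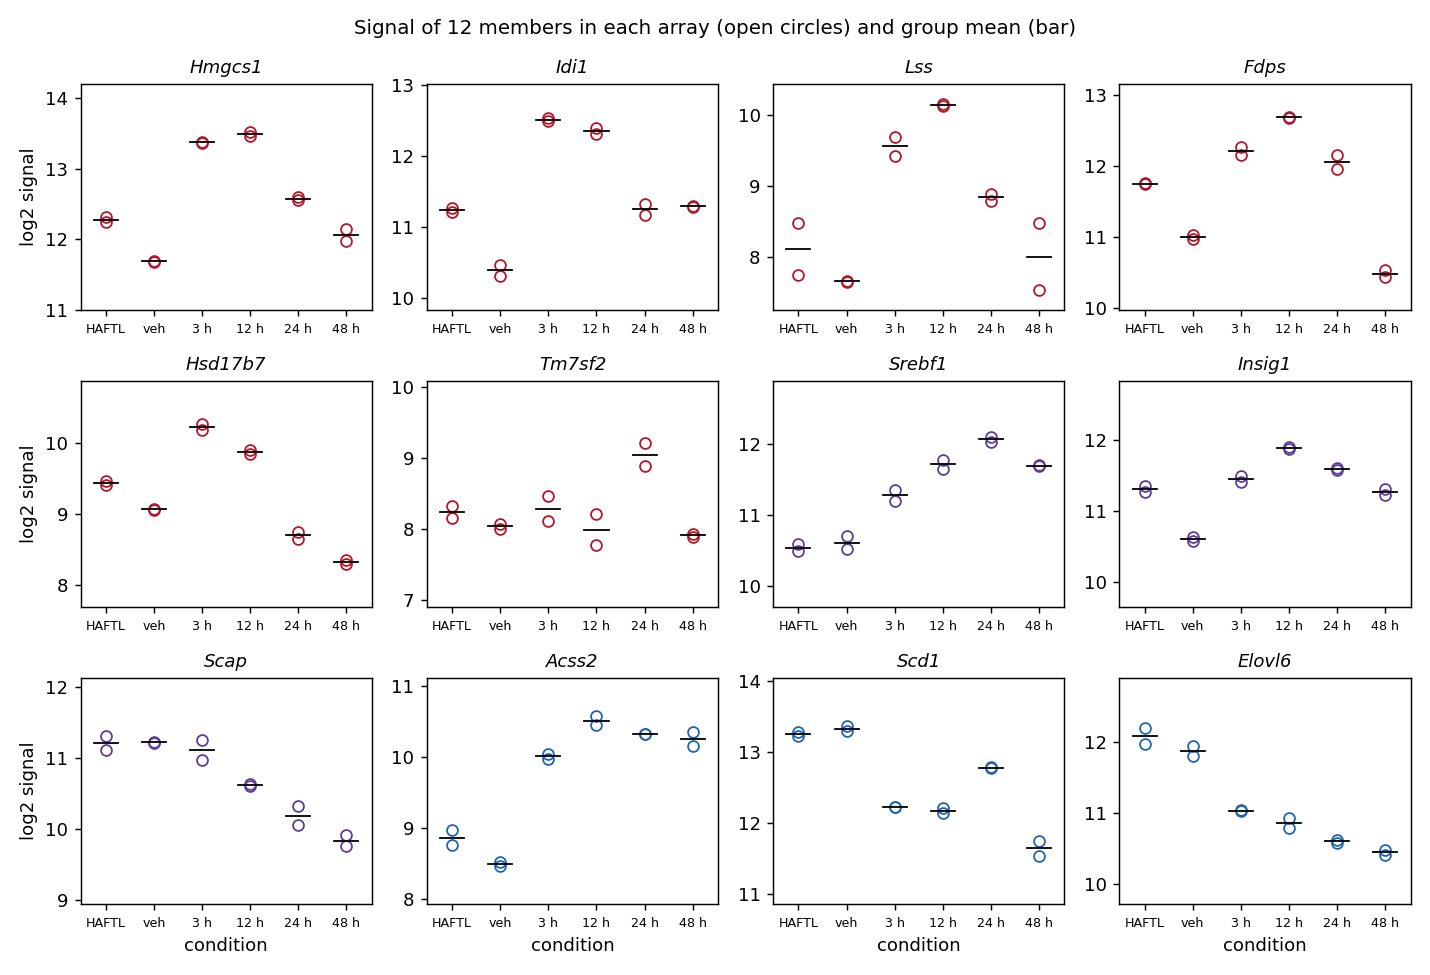
Log2 signal of 12 genes by condition (HAFTL with estradiol, vehicle C10, and C10 with estradiol for 3, 12, 24 and 48 h); circles are arrays, bars are means of 2 arrays, and each panel has its own axis range. Hmgcs1, Idi1, Lss and Fdps peak after 3 h or 12 h, Srebf1 after 24 h, Tm7sf2 stands out after 24 h, and Scap and Elovl6 step down over time.

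Among the regulators, 4 of 6 were called higher at every time, namely Srebf1, Srebf2, Insig1 and Stard4. None was lower at 3 h, and 1, Scap, was lower at each later time. Of all genes, 20.9% to 24.2% were higher and 27.3% to 38.2% lower at these times, so 1 of 6 lower is below the share of all genes. Srebf2, which encodes SREBP-2, gave 799 and 921 in vehicle C10, 1753 and 1411 after 3 h, 1622 and 1607 after 12 h, 1554 and 1633 after 24 h and 1345 and 1573 after 48 h. It stood at one plateau, with differences from 0.76 ± 0.13 (adjusted p = 0.00111) to 0.91 ± 0.13 (adjusted p = 0.000664). Srebf1 climbed for longer, from 1665 and 1468 to 2355 and 2611 after 3 h, 3502 and 3221 after 12 h and 4177 and 4411 after 24 h, and was 3326 and 3292 after 48 h. Its difference was 0.67 ± 0.09 (adjusted p = 0.000808) after 3 h and 1.46 ± 0.09 (adjusted p = 8.01e-06) after 24 h. The array signal does not separate the transcripts for SREBP-1a and SREBP-1c.

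Scap, the escort of the SREBPs, went the other way. Its signal was 2412 and 2374 in vehicle C10, 2022 and 2440.1 after 3 h, 1568 and 1590.4 after 12 h, 1279 and 1069.7 after 24 h and 865 and 965 after 48 h. The 3 h arrays fell on both sides of the vehicle arrays and all later arrays lay below them. The difference was -0.60 ± 0.13 (adjusted p = 0.00596) after 12 h and -1.39 ± 0.13 (adjusted p = 4.25e-05) after 48 h. Under spike-in scaling, which moved all genes up together, the 12 h value was 0.12, and -0.51 relative to the median of all genes. Of the proteins that retain the SREBPs, Insig1, itself a known SREBP target, gave 1584 and 1527 in vehicle C10, 2723 and 2876 after 3 h, 3751 and 3812 after 12 h and 2538 and 2388 after 48 h. Its largest difference was 1.28 ± 0.07 (adjusted p = 6.01e-06). Insig2 was called at no time, with differences between -0.17 and 0.22. Stard4, a carrier of cholesterol between membranes, rose from 1409 and 1431 to 3251 and 3356 at 12 h, by 1.22 ± 0.07 (adjusted p = 8.64e-06). It was still higher at 48 h by 0.26 ± 0.07 (adjusted p = 0.013), a call lost without vehicle replicate 1 or 48 h replicate 2 (adjusted p = 0.0584 and 0.0682).

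The fatty acid branch held genes called in both directions. Of its 10 genes, 5 were called higher and 3 lower after 3 h, 7 higher and 2 lower after 12 h, 5 higher and 2 lower after 24 h, and 1 higher and 3 lower after 48 h. The shares of all genes were 20.9% higher and 27.3% lower, 22.3% and 28.7%, 24.2% and 33.3%, and 24.2% and 38.2%, so that the lower counts were near or below them, and after 48 h the higher count too. The median difference was 0.38, 0.63, 0.40 and -0.17. The F test called all 10 genes, where 76% of all genes were called. At 12 h all 5 genes that supply or build the chain (Acss2, Acly, Me1, Acaca and Fasn) were higher, and of the 5 that elongate or desaturate it 2 were higher, Fads1 and Fads2, and 2 lower, Scd1 and Elovl6. Acss2, which makes acetyl-CoA from acetate, gave 368 and 354 in vehicle C10, 1010.0 and 1053 after 3 h, 1525 and 1397 after 12 h, 1282 and 1284 after 24 h and 1145 and 1305 after 48 h. All treated arrays lay far above the vehicle arrays, with differences from 1.51 ± 0.10 (adjusted p = 1.72e-05) after 3 h to 2.02 ± 0.10 (adjusted p = 3.79e-06) after 12 h, and 1.76 ± 0.10 after 48 h. It was the only listed enzyme at least 2-fold higher at all 4 times. Acly, which makes acetyl-CoA from citrate and feeds both branches, moved little: it gave 6757 and 6229 in vehicle C10, 8011 and 8212 after 12 h and 4234 and 5123 after 48 h. Its difference was 0.32 ± 0.10 (adjusted p = 0.0302) after 12 h and -0.48 ± 0.10 (adjusted p = 0.00388) after 48 h. Me1, malic enzyme, a source of NADPH, had the largest SE of the list, with 149.8 and 109.8 in vehicle C10, 239.6 and 108 after 3 h and 407 and 309.9 after 12 h. It was called at 12 h alone, at 1.47 ± 0.37 (adjusted p = 0.0115).

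Acaca, the carboxylase that makes malonyl-CoA, gave 595 and 415 in vehicle C10, 1056 and 1045 after 3 h, 793 and 794 after 12 h and 444 and 413 after 48 h. The vehicle duplicates stood further apart for Acaca than for any other listed gene, and the 48 h arrays overlapped them. Its difference was 1.08 ± 0.16 (adjusted p = 0.000865) after 3 h and 0.68 ± 0.16 (adjusted p = 0.00801) after 12 h. Fasn, the fatty acid synthase, gave 2385 and 1959 in vehicle C10, 3984 and 4299 after 3 h, 4788 and 4602 after 12 h and 2368 and 2169 after 48 h, with 1.12 ± 0.12 (adjusted p = 0.000156) after 12 h. Fads2, the delta-6 desaturase of polyunsaturated fatty acids, followed the sterol genes, with 427 and 368 in vehicle C10, 1079.9 and 1029 after 3 h, 669 and 599 after 24 h and 370.4 and 360.3 after 48 h. Its difference was 1.41 ± 0.11 (adjusted p = 3.18e-05) after 3 h and -0.12 ± 0.11 after 48 h, the latter not called. Fads1, the delta-5 desaturase, rose less, by 0.59 ± 0.08 (adjusted p = 0.000736) at 12 h.

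Scd1 and Elovl6 were the listed genes called lower at every time by the probe set used, while a second probe set of Scd1 was called higher after 3 h and 24 h. Scd1, the desaturase that makes oleate from stearate, gave 10097 and 10538 in vehicle C10, 4811 and 4777 after 3 h, 4525 and 4724 after 12 h, 7017 and 7060.2 after 24 h and 2976 and 3428 after 48 h. The course was not even, since the 24 h arrays lay above those of 3 h and 12 h. The difference was -1.11 ± 0.08 (adjusted p = 2.82e-05) after 3 h, -0.55 ± 0.08 (adjusted p = 0.00068) after 24 h and -1.69 ± 0.08 (adjusted p = 1.14e-06) after 48 h, 3.23-fold lower. Scd2, the related desaturase, stayed at 18362 and 18388 in vehicle C10, 16513 and 15434 after 3 h and 21660.0 and 21660.0 after 24 h. Its called differences were small, -0.20 ± 0.06 (adjusted p = 0.0321) after 3 h and 0.24 ± 0.06 (adjusted p = 0.0137) after 24 h. Elovl6, which elongates palmitate to stearate, stepped down from 3925 and 3577 in vehicle C10 to 2101 and 2079 after 3 h, 1755 and 1938 after 12 h, 1573 and 1527 after 24 h and 1421 and 1359.6 after 48 h. No treated array overlapped the vehicle arrays, and the 48 h difference was -1.43 ± 0.10 (adjusted p = 7.48e-06), 2.7-fold lower. Without 1 array the calls were lost for Scd2 after 3 h (adjusted p up to 0.152) and 24 h (up to 0.0549), Acly and Me1 after 12 h (up to 0.145 and 0.0701) and Fasn after 24 h (up to 0.0814), in each case an array of vehicle C10 or of the time compared.

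**Figure D3:**
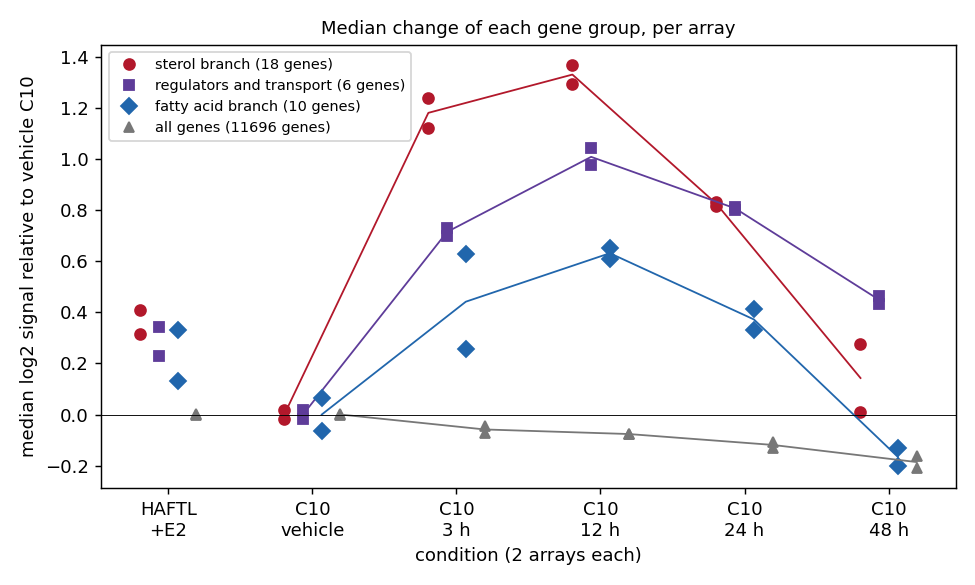
Median over the genes of each group of the log2 signal relative to the mean of vehicle C10, 1 point per array, with lines through the C10 means. The sterol points lie highest after 3 h and 12 h, the fatty acid points fall below 0 after 48 h, and the grey points, all 11696 genes tested, lie near 0 or below it, down to -0.21.

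The sterol branch stood above the fatty acid branch in the median at each time, by 0.81 after 3 h, 0.70 after 12 h, 0.43 after 24 h and 0.31 after 48 h, and by 0.10 in HAFTL. The pooled SD of this difference between duplicates was 0.111, so the HAFTL value is within it. This is a description of 18 and 10 chosen genes and carries no test. The value depends on the probe set taken: with the mean of each gene's probe sets it was 0.374, 0.162, 0.298 and 0.119 at the 4 times. Without vehicle replicate 1 the HAFTL value was -0.0333, and the 48 h value was 0.124. The fatty acid median also hides Acss2 at one end and Scd1 and Elovl6 at the other, which differed from each other by more than the branches did.

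Most of the falls came after 12 h. From 3 h to 12 h, 7 of 34 genes were called higher and 3 lower, where 16.6% of all genes were higher and 16.6% lower. Fdps rose by 0.47 ± 0.09 (adjusted p = 0.00513), Mvd by 0.90 ± 0.14, Insig1 by 0.43 ± 0.07 and Srebf1 by 0.44 ± 0.09, and Hsd17b7, Msmo1 and Scap were lower. From 12 h to 24 h, 5 were called higher and 19 lower, where 22.3% of all genes were higher and 23.1% lower. Those higher were Tm7sf2, at 1.06 ± 0.18 (adjusted p = 0.00216), Ebp, Srebf1, Scd1 and Scd2. Those lower included Idi1, at -1.11 ± 0.09 (adjusted p = 3.69e-05), Lss, at -1.31 ± 0.32 (adjusted p = 0.0122), and Hsd17b7, at -1.18 ± 0.07 (adjusted p = 1.15e-05). From 24 h to 48 h none was called higher and 18 were lower, where 9.47% of all genes were higher and 17.9% lower. Fdps fell most, by 1.58 on the log2 scale (SE 0.09, adjusted p = 3.11e-05), and Scd1 and Tm7sf2 fell by 1.14 each. Idi1 and Acss2 did not pass the test in this step, with 0.04 ± 0.09 and -0.07 ± 0.10. Fitted on the groups compared alone, 4 in place of 18 genes were lower from 24 h to 48 h, and under spike-in scaling none was. Shares of all genes for this step in these settings are not given here. Whether the drop was particular to these genes was not tested.

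**Figure D4:**
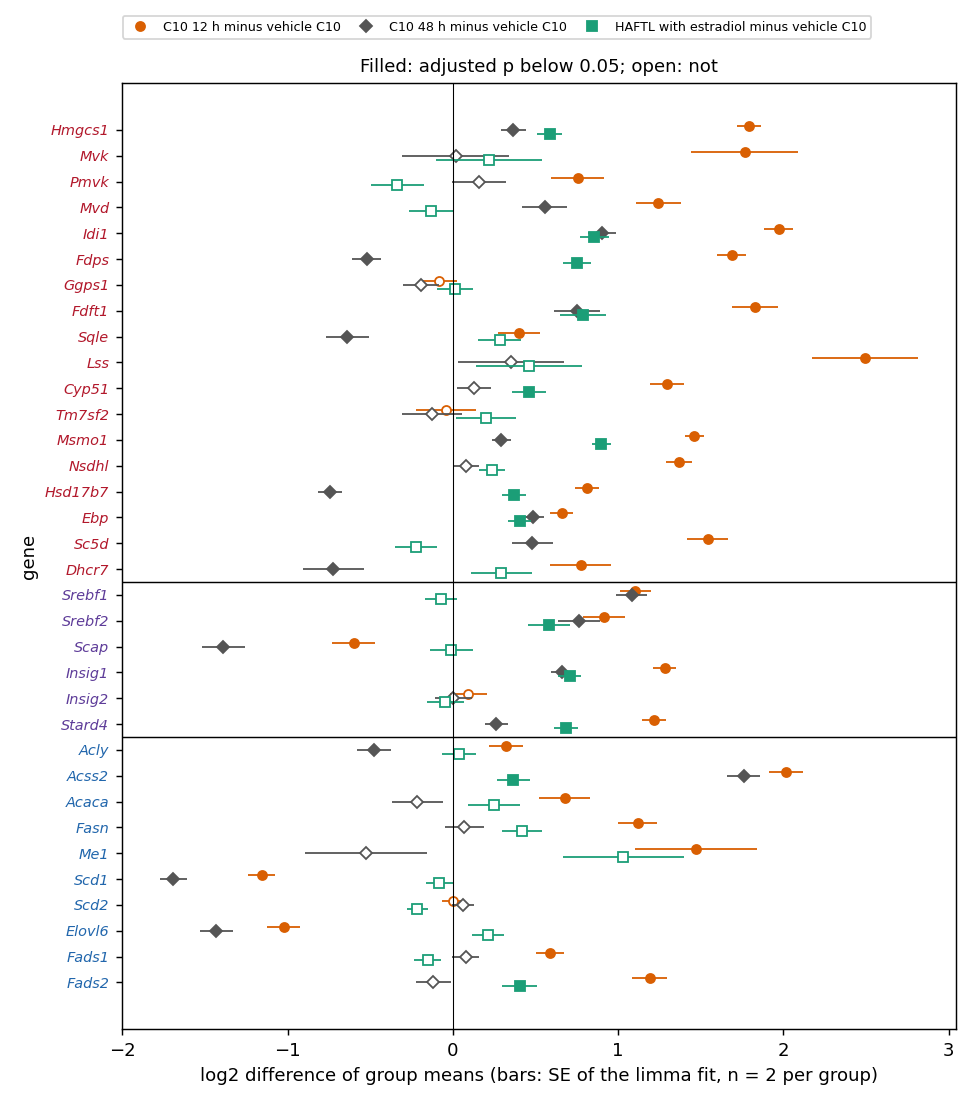
Log2 difference from vehicle C10 of the 34 genes for C10 after 12 h, C10 after 48 h and HAFTL with estradiol, with bars of 1 SE of the limma fit (n = 2 arrays a group) and filled symbols for adjusted p below 0.05. The 12 h symbols of most sterol genes lie between 0.4 and 2.49, the 48 h symbols lie on both sides of 0, and the filled HAFTL symbols all lie above 0.

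HAFTL with estradiol had higher levels of part of these genes than vehicle C10. No HAFTL culture without estradiol is analysed here, so no response of HAFTL itself was measured. Against vehicle C10, 8 of 18 sterol genes, 3 of 6 regulation and transport genes and 2 of 10 fatty acid genes were called higher, and none of the 34 was called lower, where 7.11% of all genes were higher and 8.12% lower. The median difference was 0.33 for sterol genes and 0.23 for fatty acid genes, against -0.003 for all genes. None of the 13 calls reached 2-fold. Msmo1 gave 2507 and 2549 in HAFTL against 1362 and 1352 in vehicle C10, a difference of 0.90 ± 0.06 (adjusted p = 0.000128). Idi1 gave 2464 and 2378 against 1414 and 1266, and its difference was 0.86 ± 0.09 (adjusted p = 0.00108). Fdps gave 3476 and 3437 against 2016 and 2093, and its difference was 0.75 ± 0.09 (adjusted p = 0.00206). In all 3 genes the HAFTL arrays lay above the vehicle arrays and below the 12 h arrays of C10. Hmgcs1 was higher by 0.59 ± 0.08, Fdft1 by 0.79 ± 0.14, Cyp51 by 0.46 ± 0.10, Ebp by 0.40 ± 0.07 and Hsd17b7 by 0.37 ± 0.07. Of the regulators, Insig1 was higher by 0.71 ± 0.07 (adjusted p = 0.00101), Stard4 by 0.68 ± 0.07 (adjusted p = 0.00125) and Srebf2 by 0.58 ± 0.13 (adjusted p = 0.0228), whereas Srebf1, at -0.07 ± 0.09 (adjusted p = 0.674), and Scap, at -0.01 ± 0.13 (adjusted p = 0.976), were not called. Acss2 was higher by 0.37 ± 0.10 (adjusted p = 0.0477) and Fads2 by 0.40 ± 0.11 (adjusted p = 0.0431). Scd1 and Elovl6, lower in treated C10, were at -0.08 ± 0.08 (adjusted p = 0.567) and 0.21 ± 0.10 (adjusted p = 0.195), neither called. With 1 array left out the calls were lost for 7 of the 13, namely Fdft1, Cyp51, Hsd17b7, Ebp, Srebf2, Acss2 and Fads2 (adjusted p up to 0.0582, 0.111, 0.0763, 0.0565, 0.118, 0.209 and 0.199). For Acss2 and Fads2 this held also for arrays of C10 with estradiol, and for the others for arrays of the 2 groups compared. Under spike-in scaling, none of the 34 kept a call in HAFTL, and with median centring 5 sterol genes and no fatty acid gene were called higher and 2 fatty acid genes lower. Of all genes, 0.517% were called higher in HAFTL under spike-in scaling and 3.47% with median centring, against 7.11% with quantile scaling. The sterol median in HAFTL was 0.38 under spike-in scaling, against 0.33 with quantile scaling. Why calls were lost was not tested.

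Set against HAFTL with estradiol in place of vehicle C10, both sides had received the agent. At 3 h 13 of 18 sterol genes were higher and 1 lower, where 22.3% of all genes were higher and 27.8% lower. At 12 h 14 were higher and none lower, where 22.6% of all genes were higher and 28.6% lower. At 24 h 9 were higher and 2 lower, against 23.8% and 33.8% of all genes, and at 48 h 3 were higher and 7 lower, against 24.2% and 38.3%. Of the 10 fatty acid genes, 5 were higher and 2 lower after 3 h, 6 and 2 after 12 h, 3 and 2 after 24 h, and 3 and 7 after 48 h. Hmgcs1 stood above HAFTL by 1.20 ± 0.08 at 12 h (adjusted p = 1.1e-05) and below it by 48 h, at -0.22 ± 0.08 (adjusted p = 0.034). Fdps at 48 h was lower than in HAFTL, at -1.27 ± 0.09 (adjusted p = 7.37e-06). Sc5d stayed above HAFTL at 48 h by the probe set used, by 0.70 ± 0.13 (adjusted p = 0.00155), while another of its probe sets was called lower than vehicle C10 at that time. Srebf1 stayed above HAFTL at 48 h by 1.15 ± 0.09 (adjusted p = 2.01e-05), and Acss2 by 1.39 ± 0.10 (adjusted p = 9.46e-06). Scd1 and Elovl6 at 48 h were lower than in HAFTL, at -1.61 ± 0.08 and -1.64 ± 0.10 (adjusted p = 1.54e-06 and 3.6e-06). These comparisons use the same treated arrays as those with vehicle C10.

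Of the 34 genes, 25 had more than 1 probe set, and 76 of the 81 probe sets passed the filter. When each probe set was tested on its own, 44 were called higher and 8 lower after 3 h, 51 and 6 after 12 h, 40 and 10 after 24 h, and 23 and 16 after 48 h. In HAFTL 21 were higher and none lower. Shares over all probe sets are not given here, so these counts have no background of their own. Of all genes tested, 20.9%, 22.3%, 24.2% and 24.2% were higher after 3 h, 12 h, 24 h and 48 h. The shares called lower were 27.3%, 28.7%, 33.3% and 38.2%, and those in HAFTL were 7.11% higher and 8.12% lower. Where the probe set used was called, the gene's other probe sets gave the same call in 21 of 32 cases after 3 h and 23 of 35 after 12 h. The same held for 15 of 32 after 24 h, 14 of 26 after 48 h and 7 of 16 in HAFTL. Probe sets of a gene were called in opposite directions for Scd1 after 3 h, Fdft1 after 12 h, Fdft1, Lss, Sc5d and Scd1 after 24 h, and Sc5d after 48 h. For Scd1 the second probe set was at 0.36 after 3 h and 0.39 after 24 h, higher, and at -0.43 after 48 h, lower (adjusted p = 0.0119, 0.00694 and 0.00363). The fall of Scd1 after 48 h was thus seen by both probe sets, and its fall after 3 h and 24 h by the one used here alone. For Lss another probe set was at 0.03 ± 0.13 after 12 h (adjusted p = 0.871) and -0.40 ± 0.13 after 24 h (adjusted p = 0.03). Whether Lss rose after 12 h, and its direction after 24 h, thus depended on the probe set taken. For Sc5d another probe set was at -1.18 after 24 h and -1.91 after 48 h (adjusted p = 0.0108 and 0.000808). For Fdft1 the discordant probe set had a mean log2 signal of 5.44, under the filter level of 6.22, and the third gave 1.85 at 12 h. Hmgcs1 had 5 probe sets, all higher at 24 h in their fitted difference.

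**Figure D5:**
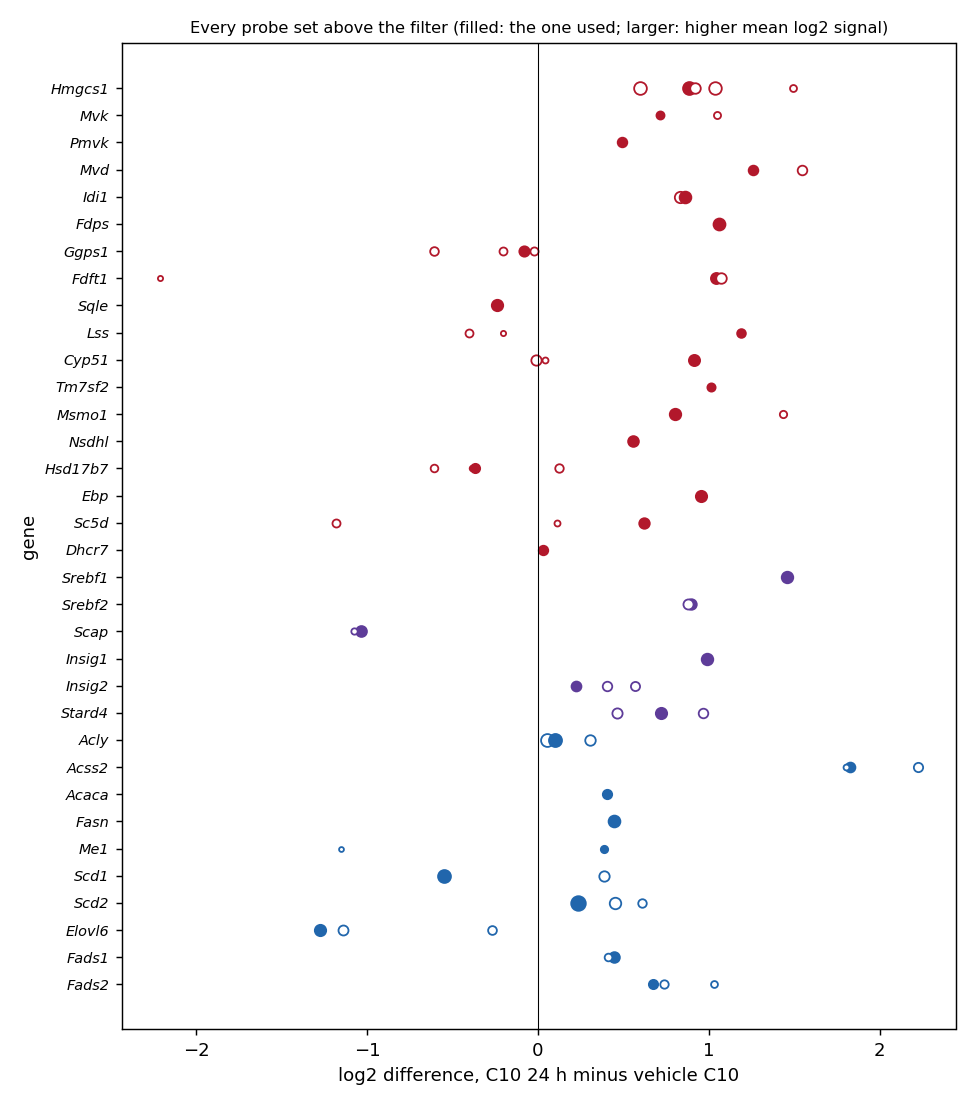
Log2 difference of C10 at 24 h from vehicle C10 for each of the 76 probe sets that passed the filter, by gene; filled circles are the probe sets used, and larger circles have a higher mean log2 signal. Genes such as Acss2, Idi1 and Scap have probe sets close together, while those of Fdft1, Lss, Sc5d and Scd1 lie on both sides of 0.

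Counts for other genes of both pathways are read against the shares of all genes, 20.9% to 24.2% higher and 27.3% to 38.2% lower at the 4 times. Of 16 further sterol genes listed, 10 were found and tested, and 4 were called higher and 3 lower after 3 h, 6 and 3 after 12 h, 7 and 2 after 24 h, 5 and 3 after 48 h, and 2 and none in HAFTL. The sterol list's higher counts were above that share, and its lower counts were near or below it. Erg28, a scaffold of the demethylation complex, was higher by 0.92 at 12 h and by 0.71 in HAFTL. Mbtps2, the site-2 protease that releases active SREBP, was lower at all 4 times, from -1.43 after 24 h to -1.03 after 3 h, and Mbtps1, the site-1 protease, was lower by smaller steps, -0.54 after 48 h. Stard3, a late endosomal sterol carrier, was at -0.26 after 3 h, not called, and higher by 2.35 after 48 h. Of 26 further fatty acid genes listed, 24 were found and 20 tested, and 3 were higher and 7 lower after 3 h, 6 and 9 after 12 h, 6 and 8 after 24 h, 6 and 9 after 48 h, and 1 and 1 in HAFTL. The higher counts of this list were below the share of all genes after 3 h and above it later, and the lower counts were above it at each time. Gpam, the first acyltransferase of triglyceride synthesis, was lower at all 4 times, from -2.18 after 48 h to -1.38 after 3 h. The elongase gene Elovl5 was higher by 1.58 after 24 h and 1.61 after 48 h, opposite to Elovl6. Markers of adipocytes and hepatocytes, other cells that make much lipid, had a summed signal of 88.6 to 246.5 over 5 genes in all arrays. One of them, Adipoq, the adipocyte hormone adiponectin, had a mean log2 signal of 4.72 in vehicle C10, 6.72 after 24 h and 7.02 after 48 h, above the filter level of 6.22 at the later times, and its part in the results was not tested.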

How the data were processed

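RNA of 12 samples, extracted with Trizol and labelled with biotin per the labels' protocols, was measured on one-colour mouse arrays. The authors deposited an intensity per probe set, on a linear scale judging by the range. With 2% trimmed at each end the mean was 500 in every array, so the deposited intensities had been scaled, by a method not given in the sources used here. Log2 intensities of 45101 probe sets were quantile-normalised, 64 control probe sets were left out and a floor of 16 was set. Genes were named from the platform annotation, checked against RefSeq (GRCm38.p6), with 1 probe set per gene, that of the highest mean. Genes entered the test with a log2 signal above the overall median, 6.22 (signal 74.6), in 2 or more arrays.

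One linear model over all 12 arrays was fitted with limma 3.58.1 (R 4.3.3), a mean for each group, 6 residual and 1.53 prior degrees of freedom, and two-sided tests with Benjamini-Hochberg adjustment over 11696 genes. The script was tested on simulated data. Comparisons were each time and HAFTL against vehicle C10, times against each other, and each time against HAFTL. After quantile normalisation same-numbered arrays did not deviate together gene by gene (correlations of -0.0337 to 0.0415 over 15 pairs). Such scaling removes array-wide shifts, so these values cannot tell whether replicate numbers pair samples. The main fit used no pairing. The members, the lists of further genes and the tests were chosen with earlier results of these data known. Genes were named by role, every listed member being accounted for. Precision is limited by the number of arrays. No detection calls were used. Alternatives were other scalings, filters, floors, probe set rules and priors, a replicate block, a fit on the compared groups alone, HAFTL as the control, and leaving out each array.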

Additional observations from a re-analysis of the deposited data

Results flagged for a closer look

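Several genes were called in opposite directions from vehicle C10 at different times, with the difference between the times itself tested by limma (Benjamini-Hochberg adjusted p below 0.05, 2 arrays a group). Fdps was higher than vehicle C10 at 3 h, 12 h and 24 h and lower at 48 h, and its 48 h level lay below those times by log2 differences of -1.74, -2.21 and -1.58 (SE 0.09; adjusted p = 1.24e-06, 5.87e-07 and 3.11e-05). Sqle was higher at 3 h and 12 h and lower at 48 h, with differences of -1.02 and -1.04 (adjusted p = 0.000202 and 0.000258). Hsd17b7 was higher at 3 h and 12 h and lower at 24 h and 48 h, with differences of -1.53 for 24 h against 3 h, -1.18 for 24 h against 12 h, -1.91 for 48 h against 3 h and -1.56 for 48 h against 12 h (adjusted p from 3.05e-07 to 1.15e-05). Dhcr7 was higher at 12 h and lower at 48 h, with a difference of -1.50 (adjusted p = 0.000259). Acly was higher at 12 h and lower at 48 h, with a difference of -0.80 (adjusted p = 0.000292). Scd2 was lower at 3 h and higher at 24 h, with a difference of 0.44 (adjusted p = 0.000569). With 1 array left out, calls for C10 with estradiol against vehicle C10 were lost for Sqle at 3 h and 12 h (adjusted p up to 0.216 and 0.183), Dhcr7 at 12 h and 48 h (0.0553 and 0.0505), Acly at 12 h (up to 0.145) and Scd2 at 3 h and 24 h (up to 0.152 and 0.0549), and for Fdps and Hsd17b7 none was lost. Both arrays of the later time lay on the other side of the vehicle arrays in each of these.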

How the results depend on the processing

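The counts of members called depended most on the scaling. Under spike-in scaling 16.7%, 19.7%, 12% and 20.8% of all genes were called higher at the 4 times, and 0.517% in HAFTL. With quantile scaling these shares were 20.9%, 22.3%, 24.2% and 24.2%, and 7.11% in HAFTL. Apart from median centring and HAFTL as the control, shares of all genes for the other settings are not given here. With spike-in scaling, whose controls varied between duplicates, the sterol genes called higher were 5 in place of 13 at 24 h, 2 in place of 7 at 48 h and 0 in HAFTL; no member was called lower at any time (0), 1 fatty acid gene and 2 regulation genes were higher at 24 h, 0 members in HAFTL, and between times 0 changed from 3 h to 12 h, 0 rose and 7 fell from 12 h to 24 h, and 0 fell from 24 h to 48 h. It turned the sign of Ggps1 (0.304) and Scd2 (0.588) at 3 h, Scap (0.115) at 12 h, and Fdps (0.0369) and Acly (0.195) at 48 h. All genes moved up with this scaling, and relative to their median these were at -0.299, -0.0146, -0.508, -0.375 and -0.217, with no sign turned. Median centring gave 5 sterol genes higher, and 0 higher and 2 lower fatty acid genes, in HAFTL, where 3.47% of all genes were higher. With probe sets averaged per gene, 5 sterol genes were higher in HAFTL, 0 sterol genes and 1 fatty acid gene were lower at 24 h, 0 regulation genes were lower at 12 h, 0 members fell from 3 h to 12 h, and the branch difference was 0.374, 0.162, 0.298 and 0.119 at the 4 times. The sign turned for Scd2 at 3 h (0.0399), Fdft1 at 24 h (-0.0142) and Sc5d at 24 h (-0.149) and 48 h (-0.433). With only the groups compared, 0 sterol genes were lower at 3 h, 3 fatty acid genes higher at 24 h, 4 sterol genes higher at 48 h, 3 sterol, 0 regulation and 0 fatty acid genes higher in HAFTL, 1 member fell from 3 h to 12 h, 3 rose from 12 h to 24 h and 4 fell from 24 h to 48 h. In HAFTL 0 fatty acid genes were higher with no filter or with every probe set tested and 1 with a robust prior, and 1 was lower with the 70th percentile filter or an intensity trend.

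With HAFTL as the control, 2 regulation genes were higher at 3 h; 3 fatty acid and 2 regulation genes were higher and 2 sterol genes lower at 24 h; at 48 h 3 sterol, 3 fatty acid and 1 regulation gene were higher and 7, 7 and 2 lower. The branch difference was 0.527, 0.553 and 0.201 at 3 h, 12 h and 24 h. Signs turned for Scd2 at 3 h (0.0133), Msmo1 at 24 h (-0.0952), and at 48 h Hmgcs1 (-0.221), Fdft1 (-0.0393), Cyp51 (-0.328), Msmo1 (-0.605), Insig1 (-0.0434), Stard4 (-0.422) and Fasn (-0.35).

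Leaving out 1 array gave 0 to 1 sterol genes lower at 3 h, 1 to 2 sterol genes lower and 3 to 5 fatty acid genes higher at 24 h, 4 to 8 sterol and 0 to 2 fatty acid genes higher in HAFTL, 4 to 6 members higher and 0 to 3 lower from 3 h to 12 h, and 3 to 5 higher from 12 h to 24 h. The branch difference ranged over 0.612 to 0.974, 0.56 to 0.88, 0.305 to 0.641 and 0.124 to 0.533 at the 4 times and -0.0333 to 0.349 in HAFTL, its lowest value in HAFTL coming without vehicle replicate 1. With the replicate number as a block, all 42 counts and branch differences stayed within the limits set for them, for example 16 sterol genes higher at 12 h, and 2 gene calls were lost and 2 gained. The deposited values and floors of 1 and 64 did the same for these 42. Causes were not tested.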
